A study of Mus musculus with 21 samples.

Results

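The testes described here came from mice that lack the nuclear receptor FXRα (encoded by Nr1h4) and were killed at postnatal day 10, with 3 animals given bisphenol A (KO BPA; T25, T83 and T117) and 3 given vehicle (KO vehicle; T1, T90 and T110). These 6 libraries are part of a series of 21, which also holds 3 FXR KO animals given stigmasterol, a plant sterol, and 12 wild-type (WT) animals of the same age, 4 each given bisphenol A (BPA), stigmasterol or vehicle. All 6 groups carry the same strain label, 50% 129sv and 50% C57Bl6, so that each animal may hold either parental copy at any locus. The sources used here do not give doses, routes, litters or the part of Nr1h4 that was deleted. Of 32643 genes in the deposited table, 20254 had enough reads to be tested, and the comparison was made over all of them.

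BPA is a plastics monomer that binds estrogen receptors weakly and acts on several other nuclear receptors. FXRα is the bile acid receptor: it senses bile acids in liver and gut, induces the repressor Nr0b2 (SHP), and is also active in the testis, where it has been linked to Leydig cell steroid production and to germ cells. At this age the mouse testis holds dividing Sertoli cells, spermatogonia and the first spermatocytes. The comparison asks what BPA does to the testis transcriptome when this receptor is missing.

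The outcome was narrow. At an adjusted p of 0.05 (edgeR's quasi-likelihood test with Benjamini-Hochberg adjustment), 3 of 20254 genes differed between KO BPA and KO vehicle testes, 0.0148% of those tested, with 1 higher (0.00494%) and 2 lower (0.00987%). They were H2-Q10, a class I gene of the major histocompatibility complex (MHC), which was higher in KO BPA testes, and the neighbouring cytokine genes Ltb (lymphotoxin β) and Lta (lymphotoxin α), which were lower. All 3 lie within the MHC on chromosome 17. At an unadjusted p under 0.05 there were 873 genes (4.31%), 474 higher (2.34%) and 399 lower (1.97%), and at an unadjusted p under 0.01 there were 163 (0.805%). The median log2 fold change over all genes was 0.00 and 465 genes (2.30%) differed at least 2-fold in the fitted values. Without T117 the same test called 12 genes, and with only the 2 groups in the fit it called 1, H2-Q10.

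The MHC is a gene-dense block that holds class I genes, whose products show peptides to T cells and natural killer cells, class II genes, and genes of the tumour necrosis factor family. Class I genes of the H2-Q and H2-T families vary in number and sequence between mouse strains. H2-Q10 is known as a liver gene whose protein is secreted into the blood, while H2-D1 encodes a classical class I molecule at the cell surface. Lymphotoxin α is secreted as a trimer and also joins lymphotoxin β in a membrane-bound complex that binds the receptor Ltbr. In mm10 coordinates Ltb (ENSMUSG00000024399) lies at 17:35194439 to 35196320, Lta (ENSMUSG00000024402) at 17:35203165 to 35205351, and H2-Q10 (ENSMUSG00000067235) at 17:35470089 to 35474563. All 3 are protein-coding.

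The promoters of the 3 called genes and of H2-D1, a class I gene that lies between Lta and H2-Q10 and had a negative log2 fold change, are shown so that the class I and lymphotoxin genes can be compared. They are RefSeq windows of the GRCm38.p6 build, each of 300 bases on the gene's own strand. Capitals mark matches, on either strand, to the κB motif GGGNNTTCC, to the nuclear receptor hexamer AGGTCA and to the TATA box TATAAA.
H2-Q10 (17:35469839-35470138, + strand): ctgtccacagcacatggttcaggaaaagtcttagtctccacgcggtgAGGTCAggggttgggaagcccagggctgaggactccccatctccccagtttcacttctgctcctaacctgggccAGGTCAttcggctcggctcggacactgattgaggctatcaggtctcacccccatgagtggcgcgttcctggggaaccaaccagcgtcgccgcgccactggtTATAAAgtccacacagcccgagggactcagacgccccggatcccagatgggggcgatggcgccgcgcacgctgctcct
H2-D1 (17:35262844-35263143, + strand): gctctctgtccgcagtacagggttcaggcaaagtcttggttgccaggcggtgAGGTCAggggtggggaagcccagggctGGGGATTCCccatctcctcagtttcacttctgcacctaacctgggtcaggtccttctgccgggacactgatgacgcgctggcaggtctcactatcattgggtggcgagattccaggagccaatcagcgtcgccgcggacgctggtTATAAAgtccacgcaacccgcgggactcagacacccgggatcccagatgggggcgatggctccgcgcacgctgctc
Lta (17:35205302-35205601, - strand): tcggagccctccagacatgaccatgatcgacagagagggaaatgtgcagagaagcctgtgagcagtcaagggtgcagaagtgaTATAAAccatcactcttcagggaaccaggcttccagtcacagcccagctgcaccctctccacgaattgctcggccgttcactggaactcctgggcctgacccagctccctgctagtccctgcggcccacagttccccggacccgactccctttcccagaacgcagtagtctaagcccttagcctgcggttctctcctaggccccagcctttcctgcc
Ltb (17:35194257-35194556, + strand): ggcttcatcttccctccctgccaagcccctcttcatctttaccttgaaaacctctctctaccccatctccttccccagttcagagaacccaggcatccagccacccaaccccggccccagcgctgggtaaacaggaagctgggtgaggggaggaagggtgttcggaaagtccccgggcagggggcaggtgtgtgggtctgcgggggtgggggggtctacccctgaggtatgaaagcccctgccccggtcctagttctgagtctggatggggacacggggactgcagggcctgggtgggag
The H2-Q10 window held 2 hexamers, 1 TATA box and 0 κB motifs, and the H2-D1 window held 1 of each. The Lta window held only the TATA box among these letters, and the Ltb window none of the 3. Only the letters GGGNNTTCC were searched for as the κB motif, and longer forms of it were not. A count of 0 therefore does not show that a window lacks a κB site. Over 32851 promoters of the same length, 16.3% held the hexamer, 13.6% the TATA box and 5.82% the κB motif. The H2-Q10 and H2-D1 windows were identical at 254 of 309 aligned columns (82.2%). These are reference letters, and the sequences of the animals themselves were not analysed here.

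H2-Q10 had 67.8, 77.9 and 64.9 counts-per-million (CPM) in KO BPA animals T25, T83 and T117, against 2.09, 1.81 and 1.67 CPM in the KO vehicle animals (T1, T90, T110). The groups were far apart and each was tight. The means were 70.2 ± 6.81 CPM in KO BPA and 1.86 ± 0.212 CPM in KO vehicle testes (SD, n = 3 each), a log2 fold change of 5.24 ± 0.654 (SE; 95% interval 3.86 to 6.61; adjusted p = 0.00137 in edgeR, two-sided). Reads counted for this gene may not all be its own: of 4511 distinct stretches of 50 bases in its annotated transcripts, 860 (19.1%) also occur in another annotated gene, most often in H2-Q7. The sources used here do not say how the authors' counting treated such reads. The H2-Q10 call was lost with limma-voom (log2 fold change 5.23, adjusted p = 0.0879).

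Ltb had 0.845, 1.07 and 0.836 CPM in KO BPA animals T25, T83 and T117, against 4.80, 3.84 and 4.41 CPM in the KO vehicle animals (T1, T90, T110). Its log2 fold change was -2.24 ± 0.232 (95% interval -2.73 to -1.75; adjusted p = 0.000246 in edgeR), a level 4.72-fold lower in KO BPA testes. Lta, the less abundant of the pair, had 0.206, 0.134 and 0.123 CPM in the same KO BPA animals, against 1.27, 1.32 and 1.65 CPM in the KO vehicle animals. Its log2 fold change was -3.17 ± 0.379 (95% interval -3.96 to -2.37; adjusted p = 0.00111 in edgeR). Neither gene's KO groups overlapped, and the KO BPA level of Lta rests on as few as 5 reads in T117. With only the 2 groups in the edgeR fit the adjusted p was 0.0504 for Ltb and 0.0540 for Lta. Neither shares a stretch of 50 bases with another annotated gene (0 of 1561 for Ltb and 0 of 1334 for Lta). The library kit does not keep the strand, so reads from the opposite strand would be counted too. Each gene also holds an annotated microRNA gene, whose part in these counts was not tested.

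The rest of the lymphotoxin pathway did not pass the test. A list of 11 further ligands, receptors and NF-κB components was chosen after the calls of Ltb and Lta were seen, and 10 were tested. Their log2 fold changes lay between -0.62 and 0.24, and 0 were called. Tnf, the cytokine gene of the same cluster, had 0.160, 0.268 and 0.123 CPM in KO BPA animals, against 0.301, 0.209 and 0.355 CPM in KO vehicle animals, and the groups overlapped. Its log2 fold change was -0.62 ± 0.432 (adjusted p = 0.897 in edgeR). Ltbr, the receptor, had 37.6, 39.5 and 46.8 CPM in KO BPA animals and 37.0, 36.3 and 42.8 CPM in KO vehicle animals (0.09 ± 0.15, adjusted p = 0.932). Map3k14, the kinase NIK that acts below Ltbr, was the one listed gene with an unadjusted p under 0.05, at 15.7, 18.0 and 16.3 CPM in KO BPA animals against 14.3, 13.8 and 14.8 CPM in KO vehicle animals (0.22 ± 0.0812, adjusted p = 0.897).

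**Figure D1:**
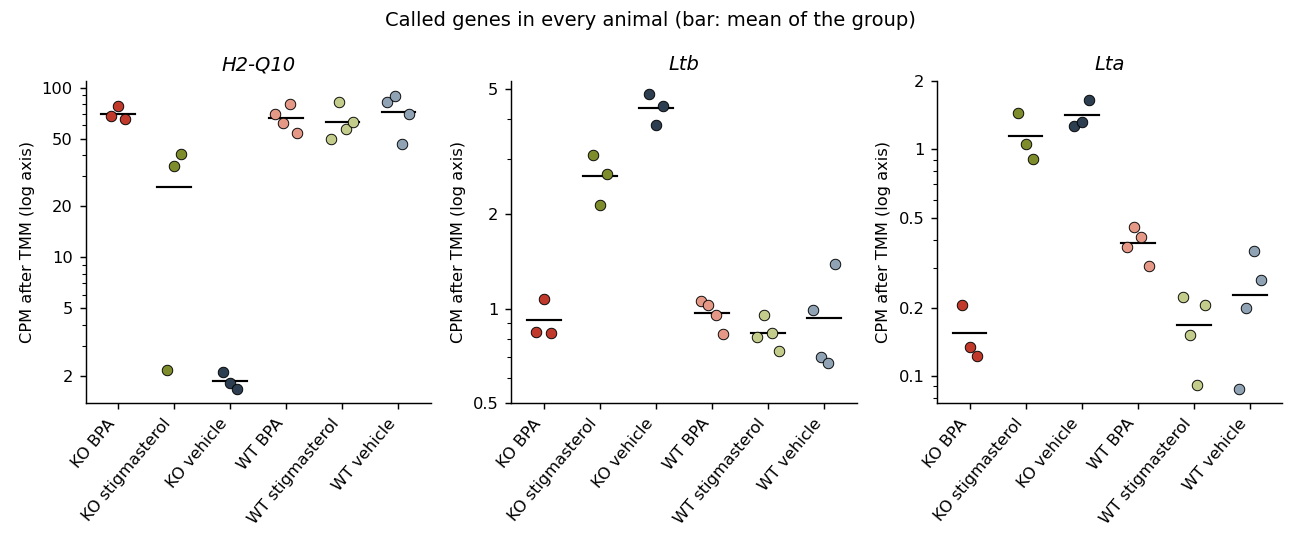
Level of H2-Q10, Ltb and Lta (CPM after TMM, log axes) in each of the 21 animals by group, with a bar at the group mean. For all 3 genes the KO BPA animals lie inside the range of the 12 WT animals, and the KO vehicle animals lie outside it.

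Set beside the wild-type animals, it was the KO vehicle group that stood apart. H2-Q10 lay between 46.3 and 89.6 CPM in the 12 WT animals (median 66.5), a range that holds all 3 KO BPA animals and none of the KO vehicle animals. Ltb lay between 0.670 and 1.38 CPM in WT animals and Lta between 0.0878 and 0.453 CPM, and again the KO BPA animals were inside and the KO vehicle animals above. In WT testes none of the 3 passed the test. The log2 fold changes of WT BPA against WT vehicle were -0.12 ± 0.45 for H2-Q10 (adjusted p = 0.921), 0.05 ± 0.203 for Ltb (0.922) and 0.75 ± 0.33 for Lta (0.224, all in edgeR, n = 4 each).

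The test of the difference between the genotypes, the interaction term of the same edgeR fit, called the same 3 genes out of 20254 (0.0148%). The log2 difference of BPA over vehicle in KO minus that in WT was 5.35 ± 0.774 for H2-Q10 (95% interval 3.73 to 6.98; adjusted p = 0.0106). For Ltb it was -2.29 ± 0.306 (-2.93 to -1.65; 0.00532) and for Lta -3.92 ± 0.502 (-4.97 to -2.87; 0.00532). In the WT comparison itself edgeR called 0 genes (0%), with 3798 (18.8%) at an unadjusted p under 0.05, while DESeq2 called 1040. The edgeR count was 1321 without the WT vehicle animal T79, 279 without the WT BPA animal T60 and 15 without the WT BPA animal T74. The next smallest interaction p belonged to Gm4134, a pseudogene of the same stretch of chromosome 17, with an interaction of -2.69 ± 0.525 (adjusted p = 0.337 in edgeR). Ifi35, an interferon-induced gene on chromosome 11, had 13.3, 16.6 and 15.9 CPM in KO BPA animals and 12.1, 12.01 and 13.6 CPM in KO vehicle animals. In the WT animals it had 13.1, 12.2, 12.5 and 10.65 CPM with BPA and 16.7, 15.8, 14.95 and 16.5 CPM with vehicle, a log2 fold change of -0.40 ± 0.0946 beside 0.28 ± 0.109 in KO (interaction adjusted p = 0.536 in edgeR). Across 15592 genes with at least 1 CPM, the log2 fold changes of BPA in KO and in WT testes correlated at r = 0.21, given as a description over genes, which are not replicates.

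The KO stigmasterol animals show how these genes varied among knockouts that had received no BPA. They are set against the same 3 KO vehicle animals, so the comparisons are not independent. H2-Q10 was at 2.16 CPM in T10, near the KO vehicle level, but at 34.7 CPM in T15 and 40.8 CPM in T93. Ltb was at 3.09, 2.14 and 2.69 CPM and Lta at 1.45, 1.06 and 0.906 CPM in the same animals, between the KO BPA and KO vehicle ranges for Ltb and partly inside the KO vehicle range for Lta. The stigmasterol log2 fold change of H2-Q10 was 3.8 ± 0.627 (adjusted p = 0.181 in edgeR). Among the 6 knockouts without BPA, T15 and T93 were the 2 with H2-Q10 above 30 CPM.

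Genes with a small p were frequent along the MHC region. Chromosome 17 held 46 of its 967 tested genes at an unadjusted p under 0.01 (4.76%), against 0.607% of the 19287 on the other chromosomes, and 30 of the 46 were higher in KO BPA testes. Of 361 windows of 5 Mb with at least 20 tested genes, the 2 with the most such genes were adjacent: 17 of 104 genes from 35 to 40 Mb and 13 of 136 from 30 to 35 Mb on chromosome 17. The KO groups did not overlap for 30 and 33 genes of these windows (28.8% and 24.3%), against 11.1% of all genes tested. The next window by this count, with 5 of 98 genes, was also on chromosome 17, from 45 to 50 Mb.

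**Figure D2:**
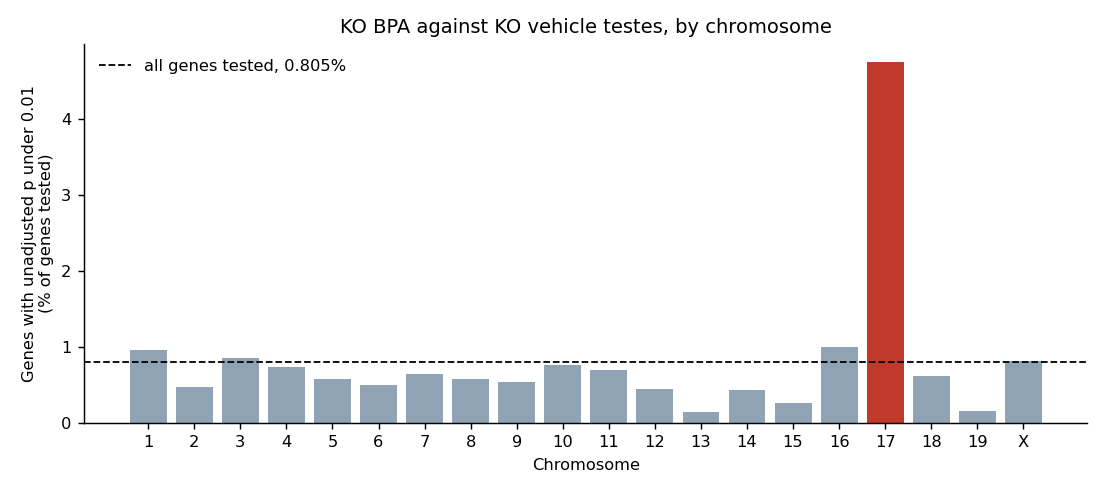
Share of tested genes on each chromosome with an unadjusted p under 0.01 between KO BPA and KO vehicle testes (bars, % of genes tested; dashed line, 0.805% over all genes). Chromosome 17 stands at 4.76% and each of the others below 1%.

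The 30 genes of the block from 30 to 40 Mb were chosen by their p, so their sizes describe them and test nothing. They went in both directions, 16 higher and 14 lower in KO BPA testes, and 29 of the 30 had groups that did not overlap. All 3 KO BPA animals lay inside the range of the 12 WT animals for 16 of them (53.3%), a share no higher than the 59.7% of all genes tested. All 3 KO vehicle animals lay outside it for 22 (73.3%). Of the 133 other genes with an unadjusted p under 0.01, all 3 KO vehicle animals were outside the WT range for 26 (19.55%), and of all genes tested for 749 (3.70%).

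**Figure D3:**
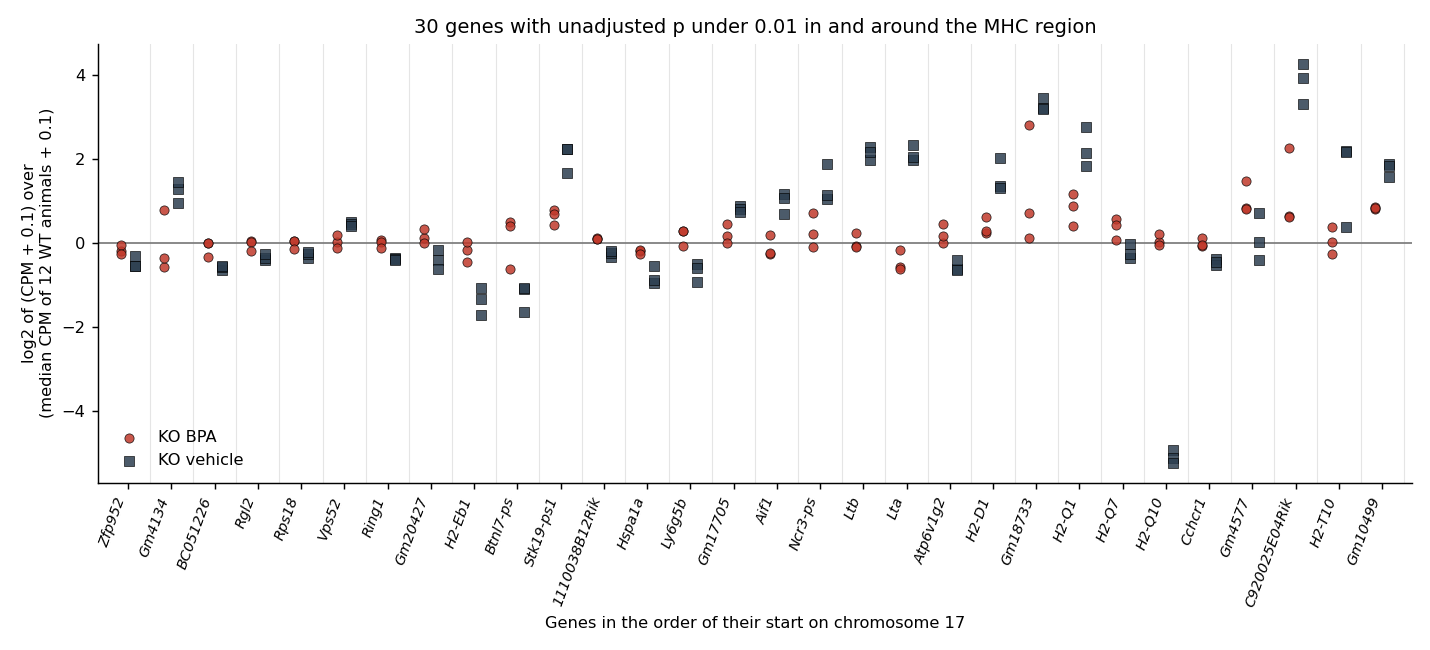
Each point is 1 animal's level of a gene, as log2 of CPM + 0.1 over the median of 12 WT animals + 0.1, for the 30 genes with an unadjusted p under 0.01 from 30 to 40 Mb of chromosome 17, in chromosomal order. Of the 90 KO BPA points 86 lie within 1 log2 unit of the WT median, against 48 of the 90 KO vehicle points.

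Among the class I genes, H2-D1 had 50.1, 38.5 and 39.9 CPM in KO BPA animals T25, T83 and T117, against 134, 84.2 and 81 CPM in the KO vehicle animals (T1, T90, T110). The groups did not overlap, and the WT range was 22.6 to 61.97 CPM, but the test was not passed (-1.22 ± 0.332, adjusted p = 0.819 in edgeR). H2-Q1, a low-level neighbour, had 1.14, 0.626 and 0.910 CPM in KO BPA animals, against 3.65, 1.87 and 2.33 CPM in KO vehicle animals (-1.55 ± 0.403, adjusted p = 0.707). H2-T10 split the KO vehicle group: it was at 0.411, 0.559 and 0.320 CPM in KO BPA animals and at 2.19, 2.16 and 0.558 CPM in the KO vehicle animals (T1, T90, T110). Many of these genes share sequence, with 50.4% of the 50-base stretches of H2-T10 found in other annotated genes, 15% of H2-Q1 and 12.8% of H2-D1.

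Levels of different genes can be compared on the authors' signal per kb of gene length, given here as authors' normalized units per kb. On that scale H2-Q10 stood at 1532 ± 150 in KO BPA testes and at 40.4 ± 4.54 in KO vehicle testes (SD, n = 3 each). It was the 5th and the 19th, respectively, of the 21 genes of the MHC class I and II list. That list also holds B2m, Cd74 and Ciita, which lie outside the MHC. H2-D1 stood at 3317 ± 485 in KO BPA and 7709 ± 2283 in KO vehicle testes. The chaperone Tapbp was the most abundant in both groups, at 12070 ± 641 in KO BPA and 12490 ± 1107 in KO vehicle testes, and B2m, the common light chain of class I molecules, ranked 3 in both, at 4878 ± 1144 in KO BPA and 5206 ± 1181 in KO vehicle testes. Of the 21 genes of this list, 1 was called, and 4 had an unadjusted p under 0.05 with higher and 2 with lower levels. The groups did not overlap for 7 (33.3% against 11.1% of all genes), and the median log2 fold change was 0.03. The transactivator Ciita and the transporters Tap1 and Tap2 were not among those with an unadjusted p under 0.05. H2-Eb1, a class II β chain, had 1.76, 2.01 and 1.40 CPM in KO BPA animals against 0.883, 0.725 and 0.532 CPM in KO vehicle animals (1.26 ± 0.283, adjusted p = 0.513), while H2-Aa (0.03 ± 0.368) and H2-Ab1 (0.35 ± 0.526), the chains of the other class II molecule, had overlapping groups.

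Other genes of the region are given as values. Cchcr1, a coiled-coil protein gene near H2-Q10, had 46.1, 40.5 and 41.0 CPM in KO BPA animals, against 32.3, 29.4 and 30.7 CPM in KO vehicle animals (0.47 ± 0.0889, adjusted p = 0.256 in edgeR). Atp6v1g2, a subunit of the vacuolar proton pump encoded near Lta, had 13.7, 18.8 and 15.6 CPM in KO BPA animals, against 8.98, 8.74 and 10.3 CPM in KO vehicle animals (0.78 ± 0.177, adjusted p = 0.513). Vps52, a vesicle tethering factor, had 68.1, 62.6 and 77.4 CPM in KO BPA animals, against 95.8, 92.4 and 90.05 CPM in KO vehicle animals (-0.42 ± 0.0848, adjusted p = 0.394). None of these 3 passed the edgeR test, and they were named by a rule that requires groups that do not overlap. Ly6g5b had 1.53, 1.54 and 1.18 CPM in KO BPA animals, against 0.602, 0.854 and 0.786 CPM in KO vehicle animals (0.92 ± 0.209, adjusted p = 0.513). The heat shock gene Hspa1a, which lies in the same region, had 10.3, 10.4 and 9.81 CPM in KO BPA animals, against 6.04, 8.01 and 6.29 CPM in KO vehicle animals (0.58 ± 0.192, adjusted p = 0.897), while the heat shock list as a whole had a median of 0.01. Aif1, a macrophage gene that lies near Ltb, had 1.94, 2.68 and 1.99 CPM in KO BPA animals, against 5.40, 3.87 and 5.07 CPM in KO vehicle animals (-1.11 ± 0.242, adjusted p = 0.489). Of the 11 macrophage markers tested, Aif1 among them, 9 had a positive log2 fold change, with a median of 0.11.

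Farther along the chromosome, 4 genes that start between 47 and 49 Mb had an unadjusted p under 0.01, and in 3 of them T117 lay apart from the other KO BPA animals. Guca1b, a photoreceptor gene, had 3.98 and 4.05 CPM in KO BPA animals T25 and T83 but 0.836 CPM in T117, against 0.803, 0.757 and 1.17 CPM in the KO vehicle animals (T1, T90, T110). Its neighbour 1700001C19Rik had 1.21, 1.5 and 0.320 CPM in the KO BPA animals and 0.161, 0.258 and 0.152 CPM in the KO vehicle animals, and Lrfn2 had 0.663, 0.648 and 0.197 CPM against 0.161, 0.0806 and 0.101 CPM. In these 3 genes T117 lay closer to the KO vehicle animals than to its own group. The other gene, the antisense transcript Frs3os, had 1.6, 1.1 and 1.08 CPM in KO BPA animals and 0.663, 0.806 and 0.963 CPM in KO vehicle animals, with T117 close to T83. The sources used here do not say which parental copy of chromosome 17 each animal carried. With 3 animals a group, a difference in inherited copies and an effect of the treatment cannot be told apart for the genes of this chromosome.

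Outside chromosome 17, 0 genes passed the edgeR test, with 762 of 19287 (3.95%) at an unadjusted p under 0.05. The genes with the smallest p there are given as values. Otof, the hair cell exocytosis gene otoferlin, had 32.7, 31.4 and 32.5 CPM in KO BPA animals, against 20.5, 24.4 and 14.1 CPM in KO vehicle animals (0.71 ± 0.168, adjusted p = 0.577), and here it was the KO BPA animals that stood farther from the WT range of 9.85 to 15.4 CPM. Galt, the galactose-1-phosphate uridylyltransferase gene, had 15.9, 16.6 and 17.5 CPM against 12.1, 13.2 and 13.6 CPM (0.36 ± 0.0907, adjusted p = 0.620). Cyr61, a matrix-associated signalling protein, had 15.5, 18.7 and 19.6 CPM against 9.92, 9.01 and 11.5 CPM (0.82 ± 0.204, adjusted p = 0.607). The hairpin genes Mir196a-1 (0.93 ± 0.23) and, on chromosome 17, Mir5125 (0.88 ± 0.217) each had an adjusted p of 0.607. Whether these reads come from the hairpin or from longer transcripts over it was not tested.

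On the lower side, Utf1, a chromatin factor of undifferentiated spermatogonia, had 3.75, 3.06 and 2.73 CPM in KO BPA animals, against 8.51, 6.24 and 5.12 CPM in KO vehicle animals (-1.06 ± 0.26, adjusted p = 0.607 in edgeR). The WT range of 1.32 to 4.07 CPM held all 3 KO BPA animals. Pgam2, the muscle phosphoglycerate mutase, had 0.823, 0.827 and 0.713 CPM against 1.69, 1.11 and 1.60 CPM (-0.89 ± 0.191, adjusted p = 0.489). Zdbf2, an imprinted gene, had 79.4, 74.8 and 67.3 CPM against 108, 99.8 and 88.7 CPM (-0.42 ± 0.11, adjusted p = 0.733). Scai (-0.38 ± 0.0926), a repressor of cell migration, and Nudcd3 (-0.34 ± 0.0852), a chaperone cofactor, each had an adjusted p of 0.607. The rule that named these 5 genes requires groups that do not overlap, which held for 2255 genes in all (11.1%), 1172 higher and 1083 lower.

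The receptors through which BPA is known to act showed no difference that passed the test. Esr1, estrogen receptor α, had 21.9, 30.3 and 31.8 CPM in KO BPA animals, against 32.3, 23.4 and 30.2 CPM in KO vehicle animals (-0.03 ± 0.199; 95% interval -0.45 to 0.39; adjusted p = 0.986 in edgeR). Esr2, estrogen receptor β, had 2.79, 4.2 and 5.90 CPM against 3.33, 3.17 and 3.52 CPM (0.36 ± 0.362; interval -0.40 to 1.12; adjusted p = 0.897). The groups overlapped for each gene. For the membrane estrogen receptor Gper1 the value was -0.01 ± 0.282 (interval -0.60 to 0.58). Of 19 estrogen receptors and targets tested, 0 were called, 1 had an unadjusted p under 0.05 and the median was 0.00. That gene was Xbp1, a transcription factor of the secretory pathway, at 72.4, 104 and 84.7 CPM in KO BPA animals and 70.4, 76.4 and 69.7 CPM in KO vehicle animals (0.27 ± 0.116, adjusted p = 0.897). Among 21 xenobiotic receptors and enzymes that handle BPA, 0 were called and 0 had an unadjusted p under 0.05 (median 0.07).

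FXRα and its targets are the next place to look. Nr1h4 itself was near the limit of detection, at 0.343, 0.492 and 0.172 CPM in KO BPA animals and 0.221, 0.290 and 0.279 CPM in KO vehicle animals, and rested on as few as 7 reads. Without the position of the deletion, these gene-wide counts are no check of it. Its target Nr0b2 had 1.67, 2.15 and 2.39 CPM against 1.19, 1.27 and 1.8 CPM (0.55 ± 0.308; interval -0.10 to 1.19; adjusted p = 0.897). Of 18 FXR targets and bile acid genes tested, 0 were called, 0 had an unadjusted p under 0.05, and 11 had a positive sign (median 0.16).

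Steroid-producing Leydig cells showed no call among 17 genes (median 0.04). Star, which brings cholesterol into mitochondria, had 38.9, 61.5 and 47.5 CPM in KO BPA animals and 74.8, 31.9 and 54.7 CPM in KO vehicle animals (-0.13 ± 0.386), and Cyp17a1, the enzyme on the path to androgens, had 67.9, 160 and 93.7 CPM against 168, 54.9 and 89.5 CPM (0.04 ± 0.605). Their spread among animals was wide, with 95% intervals of -0.94 to 0.68 and -1.23 to 1.31, and that of Cyp17a1 reaches past 2-fold in both directions. Nr4a1, an immediate early transcription factor that drives steroid genes, had 29.9, 44.8 and 37.9 CPM against 23.8, 29.5 and 24.6 CPM (0.53 ± 0.199, adjusted p = 0.897). It also belongs to the 18 immediate early genes, of which 15 had a positive sign, 2 had an unadjusted p under 0.05 and 0 were called (median 0.19).

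Sertoli cell genes lay near the median of all genes. The 26 markers had a median log2 fold change of 0.02 with 0 called and 0 at an unadjusted p under 0.05, and their summed level was 8625 to 9404 CPM in KO BPA and 8769 to 9360 CPM in KO vehicle animals. Amh, the hormone that removes the Müllerian ducts, had 163, 220 and 299 CPM in KO BPA animals and 172, 220 and 192 CPM in KO vehicle animals (0.23 ± 0.326; interval -0.46 to 0.91). The member farthest from 0 was Rhox5, an androgen-driven homeobox gene, at 6.85, 5.48 and 4.33 CPM against 15.7, 15.6 and 10.5 CPM (-1.33 ± 0.654, adjusted p = 0.896 in edgeR). It also belongs to the 12 Sertoli androgen target genes, of which 5 were lower without overlap of the groups (41.7%, against 5.35% of all genes in this direction) and 0 were called. The others of the 5 were Tsx (-1.20 ± 0.622), Tubb3 (-0.37 ± 0.169), Eppin (-0.37 ± 0.393) and Gpd1 (-0.28 ± 0.325). The list was also lower between WT BPA and WT vehicle testes, with a median log2 fold change of -0.41 beside -0.21 in KO. In that WT comparison 6 of its genes were lower and 1 higher at an unadjusted p under 0.05 in edgeR. Of all 20254 genes tested, 2123 were lower and 1675 higher by the same measure. Of the 26 Sertoli cell markers, 13 were lower and 1 higher, with a WT median of -0.32, so the lower WT levels were not particular to androgen targets.

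Germ cell lists had different medians by stage. Of 30 meiotic prophase genes tested, 0 had a positive log2 fold change, and the median was -0.57, beside 0.00 over all genes. Yet 0 were called, 1 had an unadjusted p under 0.05 and 0 had groups that did not overlap, since the 6 animals varied widely: the summed level of the list was 1254 to 2468 CPM in KO BPA and 1939 to 3238 CPM in KO vehicle animals. Tex15, needed for meiotic recombination, had 374, 255 and 227 CPM in KO BPA animals, against 670, 525.9 and 339 CPM in KO vehicle animals (-0.84 ± 0.396, adjusted p = 0.896 in edgeR). At this age the list tracks how far the first wave of meiosis has advanced, and animals that differ in stage and animals that differ by treatment cannot be told apart in 3 against 3. The 12 genes of differentiating spermatogonia had a median of -0.08 and the 18 of undifferentiated spermatogonia one of 0.04, with 0 called in either. Among these is Pou5f1, a pluripotency factor whose gene lies between H2-Q10 and Cchcr1, at 8.71, 8.76 and 5.83 CPM in KO BPA animals and 8.31, 12.2 and 12.7 CPM in KO vehicle animals (-0.51 ± 0.201, adjusted p = 0.896 in edgeR). Its groups overlapped. The KO vehicle animals and the KO BPA animals T25 and T83 lay above the highest WT animal, at 8.02 CPM, while T117 lay inside the WT range. In whole testis, fewer cells of a type and less RNA per cell cannot be told apart.

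The somatic wall and matrix lists leaned the other way. All 12 peritubular myoid markers had a positive sign (median 0.31), as did 23 of 24 collagen and matrix genes (median 0.26) and 11 of 12 endothelial genes (median 0.20), with 0 called, 0 at an unadjusted p under 0.05 and 0 without overlap in each of the 3 lists. Between WT BPA and WT vehicle testes these lists also leaned higher, with medians of 0.40 (myoid), 0.28 (matrix) and 0.14 (endothelial). In that comparison 5, 3 and 1 of their genes were higher at an unadjusted p under 0.05 in edgeR. The summed level of the myoid markers was 1537 to 3172 CPM in KO BPA and 1456 to 1931 CPM in KO vehicle animals. T117 was the highest of the 6 animals for the myoid gene Smtn, at 58.2, 60.04 and 97.9 CPM in KO BPA animals and 56.6, 54.6 and 61.8 CPM in KO vehicle animals. It was also the highest for the collagen gene Col5a1, at 199.4, 230 and 316 CPM in KO BPA animals and 169, 202.5 and 235 CPM in KO vehicle animals. The same animal had the highest level of fat transcripts, whose part in these lists was not tested. Among 21 imprinted genes 17 were positive (median 0.17), and 6 were higher without overlap (28.6%, against 5.79% of all genes in that direction). They include Meg3 at 332, 304 and 441 CPM in KO BPA animals against 238, 257 and 275 CPM in KO vehicle animals (0.48 ± 0.215, adjusted p = 0.896) and Rian at 178, 198 and 235 CPM against 149, 133 and 174 CPM (0.42 ± 0.214), both noncoding RNAs of the same imprinted cluster. T117 was the highest of the 6 animals for both. Between WT BPA and WT vehicle testes the log2 fold change was 0.59 ± 0.186 for Meg3 and 0.21 ± 0.185 for Rian, and the imprinted list had a median of 0.06.

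**Figure D4:**
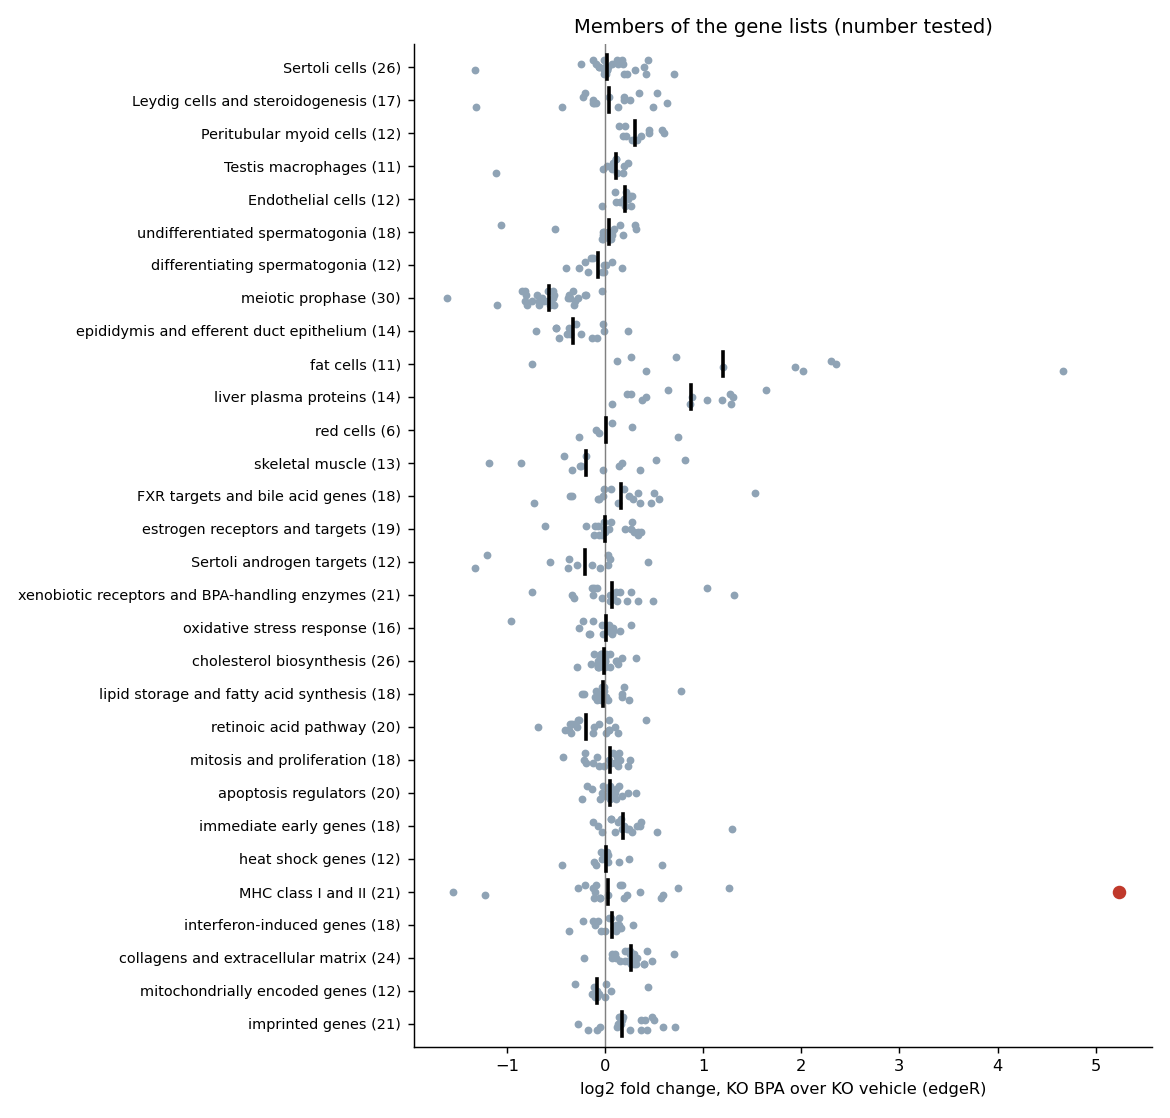
Fitted log2 fold change of KO BPA over KO vehicle for each tested member of the 30 gene lists (grey points; red, the called gene H2-Q10), with a black bar at each list's median. Medians lie near 0 for most lists, lowest for the meiotic prophase genes (-0.57) and highest for the fat cell genes (1.21).

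Except for the retinoic acid pathway, which lay lower, lists of metabolism, stress and growth stayed near the median of all genes. Cholesterol biosynthesis (26 genes) had a median of -0.01 and lipid storage and fatty acid synthesis (18 genes) one of -0.02. Mitosis and proliferation (18 genes) and apoptosis regulators (20 genes) each had 0.05, and interferon-induced genes (18 genes) had 0.08. The oxidative stress list (16 genes) had 0.01, with 2 genes lower at an unadjusted p under 0.05. One was Slc7a11, the cystine transporter, at 3.63, 4.96 and 4.03 CPM in KO BPA animals and 9.66, 10.6 and 4.21 CPM in KO vehicle animals (-0.96 ± 0.308, adjusted p = 0.896), where T110 lay with the KO BPA animals. The other was Sod2, the mitochondrial superoxide dismutase (-0.22 ± 0.104). The 20 retinoic acid pathway genes had a median of -0.19, with Rdh10 (-0.33 ± 0.135) and Stra6 (-0.27 ± 0.127), which make retinaldehyde and take up retinol, lower at an unadjusted p under 0.05. None of these 7 lists held a call.

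Transcripts of neighbouring tissues were uneven among the 6 knockouts and touch several values above. Cdh16, a cadherin known from kidney and epididymal epithelia, was at 0.411, 17.6 and 27.9 CPM in KO BPA animals T25, T83 and T117 and at 39.9, 1.16 and 22.6 CPM in the KO vehicle animals (T1, T90, T110). Of the 14 epididymal markers tested, 1 had a positive sign (median -0.32), and their sum was 173 to 330 CPM in KO BPA and 167 to 402 CPM in KO vehicle animals. Fat transcripts were highest in T117: Ucp1, the uncoupling protein of brown fat, was at 0, 0.0447 and 8.54 CPM in T25, T83 and T117, against 0.0402, 0.0806 and 0.228 CPM in T1, T90 and T110. Car3 was at 0.0457, 1.48 and 33.5 CPM against 5.78, 0 and 1.06 CPM, and Fabp4, the fatty acid carrier of fat cells, at 1.71, 2.73 and 35.8 CPM against 6.75, 0.532 and 3.27 CPM. Of 11 fat cell genes tested, 10 were positive (median 1.21) with 0 called, and their sum was 84.4 to 228 CPM in KO BPA and 75.2 to 96.6 CPM in KO vehicle animals. Of 14 liver plasma protein genes tested, 14 were positive (median 0.88) with 0 called, 0 at an unadjusted p under 0.05 and 0 without overlap, and their sum was 35.7 to 71.3 CPM in KO BPA and 30.7 to 39.8 CPM in KO vehicle animals. Alb, the plasma albumin gene, was at 18.9, 4.34 and 4.06 CPM against 7.67, 2.26 and 1.24 CPM. Between WT BPA and WT vehicle testes the liver list had a median log2 fold change of 4.99, and that of H2-Q10 was -0.12. The WT BPA animals were uneven: the liver gene Ttr was at 0.645, 5.17, 53.3 and 0.0219 CPM in T60, T75, T61 and T74. In the WT vehicle animals Ttr was at 0.0752 to 0.219 CPM. T25 and T90 are the pair with little Cdh16, and in a fit without libraries at or above 10 CPM of Cdh16, which leaves these 2 animals of the comparison, H2-Q10 differed by 5.23 in log2 (adjusted p = 0.0144 in edgeR). In that fit Ltb differed by -2.18 (adjusted p = 0.231) and Lta by -2.67 (adjusted p = 1), and 7 genes were called. The lone animals are there assumed to vary like those of the WT groups. For the other genes the part of these tissues was not tested gene by gene.

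**Figure D5:**
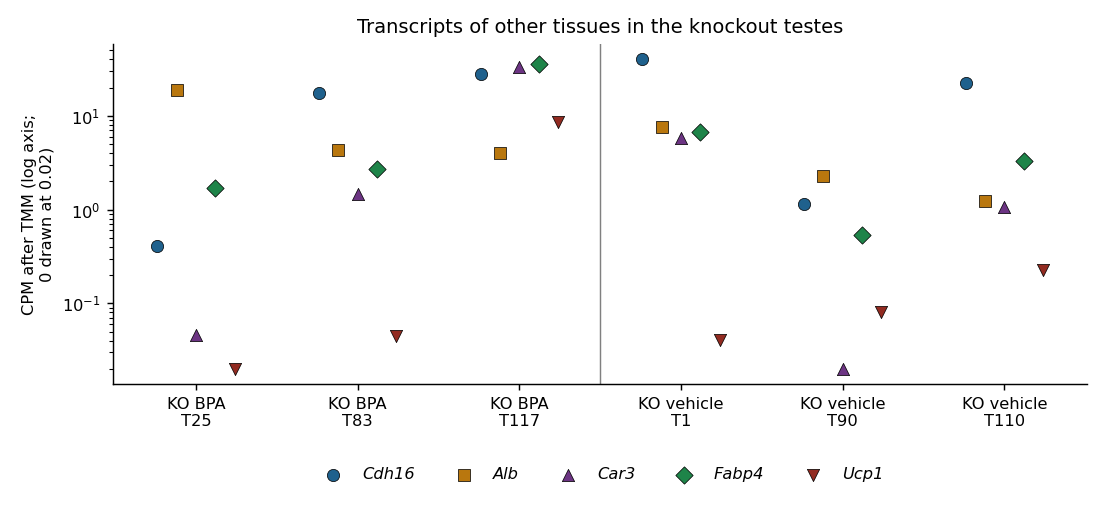
CPM after TMM (log axis, 0 drawn at 0.02) of Cdh16, Alb, Car3, Fabp4 and Ucp1 in each KO BPA and KO vehicle animal. Car3, Fabp4 and Ucp1 are highest in T117, and Cdh16 is above 10 CPM in 2 animals of each group.

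The authors' deposited table, made with a test that the sources used here do not name, called 23 genes for this comparison (13 higher and 10 lower; 0.0705% of 32643), of which 14 lie on chromosome 17 and 20 were tested here. All 3 edgeR calls are among them. The authors' deposited table gives a log2 fold change of 5.24 for H2-Q10, -2.24 for Ltb and -3.19 for Lta. It also lists the fat genes Ucp1 (4.62), Lep (4.25), Cox8b (3.26) and Cidec (2.33), which rest on T117: Lep was at 0, 0.0224 and 0.664 CPM in T25, T83 and T117. Prss56, given at -3.26 in the authors' deposited table, rests on T1, which had 5.70 CPM while the other 5 animals had 0.134 to 0.387 CPM. Gm7658, given at 6.76 there, had 3.67 CPM in T83, 0.0492 CPM in T117 and 0 in the other 4. DESeq2 on the same counts called 12 genes (7 higher and 5 lower), the 3 edgeR calls with Cchcr1, Vps52, H2-Eb1, Atp6v1g2, Aif1 and Ccdc167, also on chromosome 17, and Galt, Otof and Gm16185.

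The 6 libraries held 38943327 to 61498855 reads, which puts 3 reads at 0.0488 to 0.0770 CPM. The median SE of a log2 fold change was 0.178 over all genes and 0.136 over the 15592 genes with at least 1 CPM. Marker genes of Sertoli cells, Leydig cells and spermatogonia were present in each library, as the tissue label implies. Animals are the replicates. The labels give no litters. The p-values weigh the difference between groups against a spread between animals that was estimated from all 21 libraries in 6 groups.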

How the data were processed

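Total RNA from whole testes was sequenced with an Illumina TruSeq kit that does not keep the strand, per the labels' protocols. The mm10 genome, TopHat2 2.0.10, Bowtie2 2.1.0, Bowtie and CASAVA 1.8.2 are listed in the submitters' processing notes. The sources used here name no counter, annotation release or test of the authors, and do not say how reads with several matches were counted. The authors deposited raw counts per gene, a normalized signal (the count divided by 1 size factor per library), the same signal per kb of gene length, and, per the file headers, log2 fold changes with raw and adjusted p-values, rounded to 2 decimals. The per-kb signal was used only to compare levels between genes.

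Counts of all 21 libraries were fitted in 6 groups with the quasi-likelihood test of edgeR 4.0.16 (R 4.3.3). Low genes were removed by filterByExpr with a minimum total of 15 and a minimum count of 10, libraries were scaled by TMM, and each contrast was adjusted by Benjamini-Hochberg with a threshold of 0.05. The 6 libraries of the comparison held 38943327 to 61498855 reads. CPM are after TMM, SE is the absolute log2 fold change over the square root of F, and intervals are 95% intervals of the fit. Single-library values carry counting error besides. The biological coefficient of variation was 19.2%. Alternatives were DESeq2 1.42.0 size factors and test, limma-voom 3.58.1, no filter, the 2 groups alone and each animal left out. After the data were seen, fits without libraries with Cdh16 at 10 CPM or more and with an epididymis score as a covariate were added. The score is a mean over the tested genes of the epididymal list. Each gene enters as log2 CPM (prior count 2) minus its own mean over the 21 libraries.

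The members and the 30 gene lists (543 entries) were chosen with earlier results of these data known. Named genes are the called genes, filled to 10 in each direction by the smallest p among genes with a conventional symbol, groups that do not overlap, and 1 CPM or more in the higher one. Called list members, the 2 members of smallest p in each list, 9 fixed genes, tissue markers and the 5 smallest interaction p were added, and the text gives part of these. One further gene of this rule and of a list is not reported here. The chromosome 17 genes, the authors' calls and the lymphotoxin list were chosen after their values were seen. Animal tags do not pair samples across groups. Promoters and transcripts are RefSeq GRCm38.p6 and GENCODE GRCm38, the same assembly as mm10.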

Additional observations from a re-analysis of the deposited data

Results flagged for a closer look

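For 3 genes the difference between BPA and vehicle groups was not the same in KO and WT testes, by the interaction term of the edgeR fit, which compares group means. The log2 difference in KO minus that in WT was 5.35 for H2-Q10 (adjusted p = 0.0106), -2.29 for Ltb (adjusted p = 0.00532) and -3.92 for Lta (adjusted p = 0.00532). All 3 KO BPA animals lay on the same side of all 3 KO vehicle animals for each gene, and KO BPA animals were inside the range of the 12 WT animals. Guca1b, 1700001C19Rik and Lrfn2 on the same chromosome had T117 near the KO vehicle level. For Gm18733, Gm4134 and Btnl7-ps, inside the block from 30 to 40 Mb, T117 also lay closer to the KO vehicle animals than to its own group. H2-Q10 was at 34.7 and 40.8 CPM in 2 of 3 KO stigmasterol animals. The sources used here do not say which parental copy of the region each animal carried, and its part in these differences was not tested. A single distant animal was looked for in 40 sets of 4 WT values, and 0 were found. With 4 values in a set such a search can easily miss a distant animal, so the 0 does not show that the WT animals were alike. The search also does not speak for all genes or for whole animals. The WT BPA animal T61 had the liver gene Ttr at 53.3 CPM, beside 0.0219 to 5.17 CPM in the others of its group. The knockout groups, with 3 animals each, were too small to be examined this way.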

How the results depend on the processing

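The 3 genes called between KO BPA and KO vehicle testes (1 higher and 2 lower) stayed 3 with DESeq2 size factors in edgeR and with no filter on low counts. DESeq2 called 12 (7 higher and 5 lower, 5 at least 2-fold), limma-voom 0 higher and 3 lower, edgeR on only the groups compared 1 (0 lower, 1 at least 2-fold), and the fit with the epididymis score as a covariate 2 higher and 2 lower. Without libraries at or above 10 CPM of Cdh16, which leaves T25 against T90, 7 were called (4 higher, all 7 at least 2-fold). At an unadjusted p under 0.05 there were 915 genes with DESeq2, 1155 with only the groups compared and 397 without the Cdh16 libraries. With each animal left out in turn the count was 3 to 12 (1 to 3 higher, 2 to 9 lower, 3 to 11 at least 2-fold), and the highest values of each range came without T117. The interaction called 2 to 5 genes (5 without T117) and 8 with DESeq2. The WT comparison called 0 genes, against 1040 with DESeq2 and 0 to 1321 with 1 animal left out (1321 without T79, 279 without T60, 15 without T74). H2-Q10, Ltb and Lta were called in all 6 edgeR fits that left out 1 knockout. H2-Q10 lost its call with limma-voom (adjusted p = 0.0879), and Ltb and Lta lost theirs with only the groups compared (0.0504 and 0.0540) and without the Cdh16 libraries (0.231 and 1).

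None of the genes that turned sign passed the edgeR test. Esr1 stood at 0.0153 with the epididymis score and Gper1 at 0.0151 with limma-voom, and without the Cdh16 libraries Esr2 stood at -0.19, Amh at -0.44 and Star at 0.28. With 1 animal left out, the log2 fold change was -0.0276 to 0.67 for Nr1h4, -0.15 to 0.12 for Esr1, -0.18 to 0.20 for Gper1, -0.0161 to 0.42 for Amh, -0.38 to 0.19 for Star and -0.36 to 0.58 for Cyp17a1. Over all alternatives and named genes, 333 values kept their direction and side of the threshold, which includes uncalled genes that stayed uncalled, 18 turned sign, 8 passed the threshold only under the alternative and 5 lost it. The causes were not tested. No paired analysis was possible because animal tags are not shared between groups. With 3 animals a group, the median SE was 0.178 in log2, and Lta and Nr1h4 rest on few reads.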
